A study of Mus musculus with 15 samples.

Results

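The empty vector (EV) and shScramble (Scr) lines of 6DT1 cells, the controls of the *Smarcd1* overexpression and knockdown experiments, were compared with each other, 3 libraries against 3. These 6 libraries were chosen by their sample labels from 15 libraries of cells grown in monolayer. The other 9 came from the *Smarcd1* overexpression line (OE) and the knockdown lines KD4 and KD6, with 3 libraries each. 6DT1 is a mouse mammary carcinoma line, and neither control carried a change aimed at *Smarcd1*, a gene for a subunit of the BAF chromatin remodelling complex. The study names EV as the control of the overexpression line and Scr as that of the knockdown lines. According to the methods, hairpin and overexpression constructs were brought in by viral transduction, and knockdown cells were kept in puromycin and overexpression cells in blasticidin. The backbone of the empty vector and the sequence of the scramble hairpin are not described in the sources used here. The methods do not state the drug of either control line. If each was kept in the drug of its experiment, construct and drug differ together between EV and Scr and cannot be told apart. By sample number, all EV and OE libraries come before all Scr, KD4 and KD6 libraries. Sample order therefore cannot be told apart from construct, or from any difference in drug, either. The labels give the genotype of both as wild type and state that the cells were untreated, and they describe replicates as coming from different passages seeded on successive days.

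ATAC-seq uses a transposase that inserts sequencing adapters into exposed DNA, so that read density follows chromatin accessibility. A scramble hairpin is processed by the cell's RNA interference machinery, while an empty vector carries no insert. The series and the methods call these libraries ATAC-seq, while the labels' extraction text describes RNA and the processing notes name a spliced aligner. Which molecule the counts came from was therefore not settled here, and values are given as counts over regions, not as accessibility. The regions carry mm39 positions and no gene names. No annotation or sequence of mm39 was used here, so loci are given by position, no gene was assigned to them and no marker of the cell type could be checked.

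The table of regions deposited for the knockdown comparison (the KD table) held 44598 regions with a median width of 302 bp. The EV libraries held 23118356, 23703741 and 21050527 counts and the Scr libraries 16176521, 19152961 and 17631601. Every Scr library was thus shallower than every EV library, and the exact permutation test gave p = 0.1, the smallest that 3 against 3 allows. Mitochondrial regions took 3.82% to 4.45% of the counts in EV and 3.18% to 3.87% in Scr, and these ranges overlapped. In the table deposited for the overexpression comparison (the OE table), the same libraries had 4.19% to 4.91% in EV and 3.29% to 4.12% in Scr, with no overlap (exact permutation test, p = 0.1, the smallest possible).

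Scr and EV differed at 1921 of 43819 tested regions, 4.38% of them, at an edgeR false discovery rate (FDR) of 0.05. Counts were higher in Scr at 958 regions (2.19%) and lower at 963 (2.2%). Without TMM scaling, which moves the median log2 fold change of all regions from 0.02 to 0.12, the split was 1075 higher and 436 lower. The number of calls depended on single libraries. It was lower by more than 1.5 times without EV replicate 1 (304 higher and 356 lower), EV replicate 2 (106 and 305), Scr replicate 1 (153 and 213) or Scr replicate 3 (220 and 234), and it rose without EV replicate 3 (1348 and 1504) or Scr replicate 2 (1183 and 1478). The values of the 3 EV libraries did not overlap with those of the 3 Scr libraries at 933 of the higher and 944 of the lower regions. Groups did not overlap at 26.4% of all tested regions.

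Most called differences were below 2-fold. The median log2 fold change of the higher regions was 0.86 and that of the lower regions was -0.76. A change of at least 2-fold was found at 233 higher and 236 lower regions. At 4-fold the sides were unequal in the KD table, with 3 higher regions against 28 lower ones. This split depended on the set of regions. In the OE table, called regions of at least 2-fold numbered 369 higher and 127 lower, and those of at least 4-fold 3 and 5. The called lower regions had a median level of 14.5 CPM (counts scaled to a library total of 1000000) and the higher ones 5.60 CPM, compared with 5.87 CPM over all tested regions. Of the regions that changed by at least 4-fold, all 3 higher and most lower ones averaged below 5 CPM over EV and Scr.

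**Figure D1:**
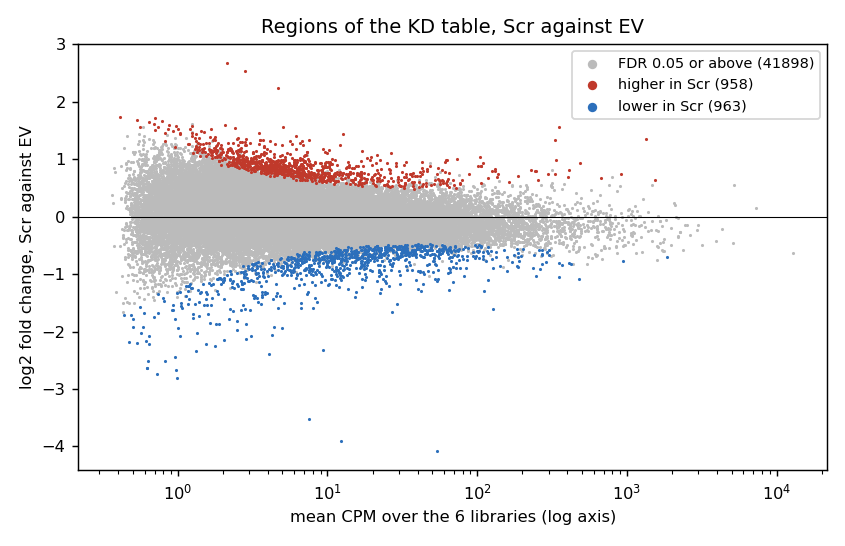
Log2 fold change of Scr against EV (y axis) by mean CPM over the 6 libraries (x axis, log scale) for the tested regions of the KD table, one point per region. Red points were higher in Scr (958), blue points were lower (963), and 3 blue points near a log2 fold change of -4 lie within 1 locus of chromosome 6.

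The largest difference lay on chromosome 6, where 3 neighbouring regions spread over 8.96 kb were lower in Scr. At chr6:49024678-49025006 the EV libraries had 68.6, 121 and 115 CPM and the Scr libraries 5.63, 8.54 and 3.68 CPM. The lowest EV value was far above the highest Scr value, and the log2 fold change was -4.07 (SE 0.25, FDR 5.91e-09), a 16.8-fold difference. The neighbouring regions chr6:49028773-49028937 and chr6:49033116-49033642 changed alike, with log2 fold changes of -3.52 (SE 0.21) and -3.91 (SE 0.28). Their mean levels were 13.9 ± 1.15 and 23.2 ± 7.54 CPM in EV and 1.20 ± 0.21 and 1.55 ± 0.61 CPM in Scr (SD, n = 3).

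Counts at chr5:88077596-88078036 were 17.8, 15.4 and 13.6 CPM in EV and 3.03, 3.02 and 3.20 CPM in Scr. This isolated region, with no other listed region within 232 kb, had a log2 fold change of -2.32 (SE 0.18, FDR 2.93e-07). Chromosome 10 held further strongly lower regions, which were not neighbours of each other. At chr10:75773172-75773536, EV had 41.9, 39.6 and 42.6 CPM and Scr 11.8, 14.1 and 13.1 CPM (log2 fold change -1.66, SE 0.14, FDR 1.38e-06). At chr10:18731412-18732812, a wide region of 1401 bp, EV had 223, 182 and 173 CPM and Scr 71.8, 63.6 and 53.4 CPM (log2 fold change -1.60, SE 0.16, FDR 1.08e-05). The groups were separated by more than the spread of either in both regions.

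The other 4 regions among the 10 largest falls with at least 5 CPM were chr1:192427928-192428532, chr2:165958795-165959004, chr1:180817192-180817494 and chr2:80447598-80447879. Their log2 fold changes ran from -1.60 to -1.51. The one with the highest level, chr1:180817192-180817494, had 52.5, 35.9 and 42.5 CPM in EV and 15.8, 18.6 and 10.6 CPM in Scr.

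Among regions higher in Scr with at least 5 CPM, the largest and best supported change was at chr8:85571037-85571352. EV had 174, 185 and 178 CPM there and Scr 559, 467 and 547 CPM, a log2 fold change of 1.56 (SE 0.15, FDR 1.08e-05). Replicates of each group lay close together, with a mean of 179 ± 5.66 CPM in EV and 524 ± 50.3 CPM in Scr (SD, n = 3). The other abundant region, chr2:140797842-140797999, had 148, 217 and 200 CPM in EV and 525, 559 and 338 CPM in Scr. It also rose (log2 fold change 1.34, SE 0.19, FDR 0.000794), with a wider spread among the Scr libraries and no other listed region within 294 kb.

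At chr1:193016556-193016836, EV had 7.06, 7.73 and 5.79 CPM and Scr 22.5, 16.5 and 16.5 CPM (log2 fold change 1.44, SE 0.17, FDR 0.000108). The other 7 regions with large rises had Scr means of 7.55 to 10.8 CPM and log2 fold changes from 1.26 to 1.55, and 2 of them, chr9:21636826-21637234 and chr9:21649666-21649995, belonged to 1 run described below. The region chr18:3040845-3041110 was among the 5 rises with the smallest p, with means of 7.18 ± 0.91 CPM in EV and 16.9 ± 3.30 CPM in Scr (SD, n = 3) and no overlap between the groups (log2 fold change 1.24, SE 0.18, FDR 0.000725). The calls at chr1:34068943-34069247 and chr12:111355228-111355381 were lost when Scr replicate 1 was left out, and the former also without Scr replicate 3.

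The 3 regions that were at least 4-fold higher in Scr lay in 1 stretch of 39.7 kb on chromosome 9, below the 5 CPM used for the regions above, and were singled out after their values were seen. At chr9:20681880-20682175 EV had 1.57, 1.39 and 1.98 CPM and Scr 9.71, 6.30 and 7.26 CPM (log2 fold change 2.24, SE 0.24, FDR 2.55e-05). The regions chr9:20681364-20681517 and chr9:20720755-20721089 had log2 fold changes of 2.67 (SE 0.33) and 2.54 (SE 0.30). The 28 regions at least 4-fold lower fell into 17 loci, when regions up to 100 kb apart were joined, and 14 of these loci were single regions. Chromosome 3 held 9 of the 28 in 1 locus of 43.1 kb.

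**Figure D2:**
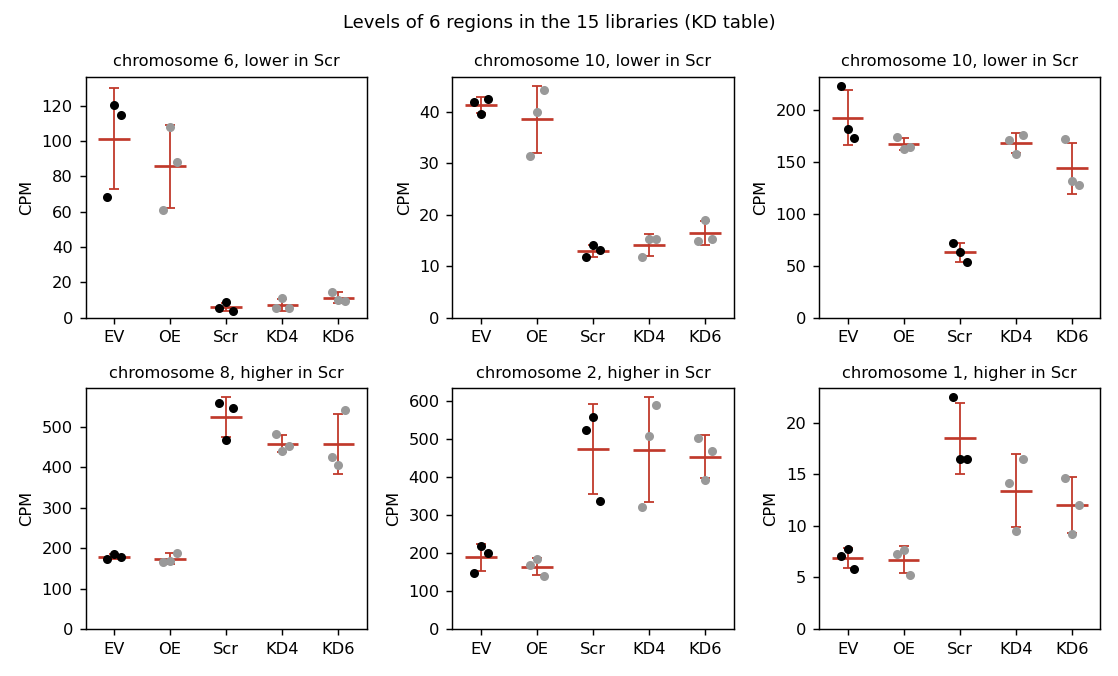
CPM (y axis) in each library of the 5 lines (x axis) for 6 regions of the KD table, with the mean (red bar) and SD of 3 libraries, and the EV and Scr libraries in black. Panels from top left are chr6:49024678-49025006, chr10:75773172-75773536, chr10:18731412-18732812, chr8:85571037-85571352, chr2:140797842-140797999 and chr1:193016556-193016836. In the top right panel OE, KD4 and KD6 average 167, 168 and 144 CPM and Scr 62.9 CPM.

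Differences also ran along stretches of the genome. A run was counted where at least 3 called regions of the same direction followed each other with gaps of at most 10 kb and no opposite call between them. There were 23 runs of regions higher in Scr, with 93 regions or 9.71% of the higher calls, and 32 runs of lower regions, with 117 regions or 12.1% of the lower calls. The median span was 6.93 kb for higher and 5.07 kb for lower runs. The sign of the called members follows from how runs were defined. Of the 35 tested regions inside higher runs that were not called, 32 had a positive log2 fold change, beside 53.1% of all regions not called. Of the 22 inside lower runs 21 had a negative one, beside 46.9%. Neighbouring regions share signal, and run members were therefore not independent.

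The run with the most members was a lower one at chr3:9493023-9512567, in which all 10 tested regions were called. Their summed level was 46.7, 43.7 and 46.2 CPM in EV and 9.96, 12.9 and 8.81 CPM in Scr. The log2 fold changes of the members stayed between -2.40 and -1.63, so the fall was of like size over 19.5 kb. These were weak regions, with a mean of 2.80 CPM each, and several were wide, up to 1949 bp.

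The lower run at chr6:47631842-47662279 was evenly spaced. Its 8 regions were 154 to 163 bp wide and started 4307 to 4339 bp apart, and their log2 fold changes lay between -1.07 and -0.89. Whether they are copies of 1 sequence was not tested, since no mm39 sequence was used, and the 8 values are uncertain as separate regions if reads were split among copies. The EV libraries spread widely, with summed levels of 188, 107 and 86.4 CPM, and the Scr libraries had 70.7, 72.9 and 48.5 CPM.

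At chr1:191339932-191355794 all 5 tested regions were lower, with sums of 97.9, 91.9 and 93.5 CPM in EV and 39.5, 50.6 and 43.3 CPM in Scr. The fall ranged from a log2 fold change of -0.69 at the lowest coordinate to -1.26 at chr1:191353291-191354722. The next runs by number of members were chr10:24471437-24474489, chr3:96465457-96468971 and chr14:63193798-63198861, with 4 called regions each and EV sums 1.66, 1.58 and 1.57 times the Scr sums.

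The higher run with the most members was chr9:21636314-21660437, where 9 of 10 tested regions were called and all 10 had positive values. Sums were 160, 148 and 133 CPM in EV and 234, 243 and 233 CPM in Scr. The log2 fold change fell to 0.56 at the most abundant region, chr9:21659677-21660437, and reached 1.55 at chr9:21636826-21637234. At chr1:78637144-78646241 all 6 tested regions rose, with sums of 42.6, 38.6 and 39.6 CPM in EV and 70.4, 71.9 and 66.4 CPM in Scr.

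The most abundant run was chr19:5846198-5850816. Its 5 regions summed to 2541, 2556 and 3264 CPM in EV and 4606, 3950 and 5171 CPM in Scr, and the median log2 fold change was 0.75. Runs at chr10:7391548-7406538, chr3:144809176-144817898 and chrX:102521355-102524443 had Scr sums 1.77, 1.78 and 1.59 times those of EV. In each of the 55 runs the sums of the 3 EV libraries did not overlap with those of the 3 Scr libraries, which follows in part from the calls that defined the runs.

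**Figure D3:**
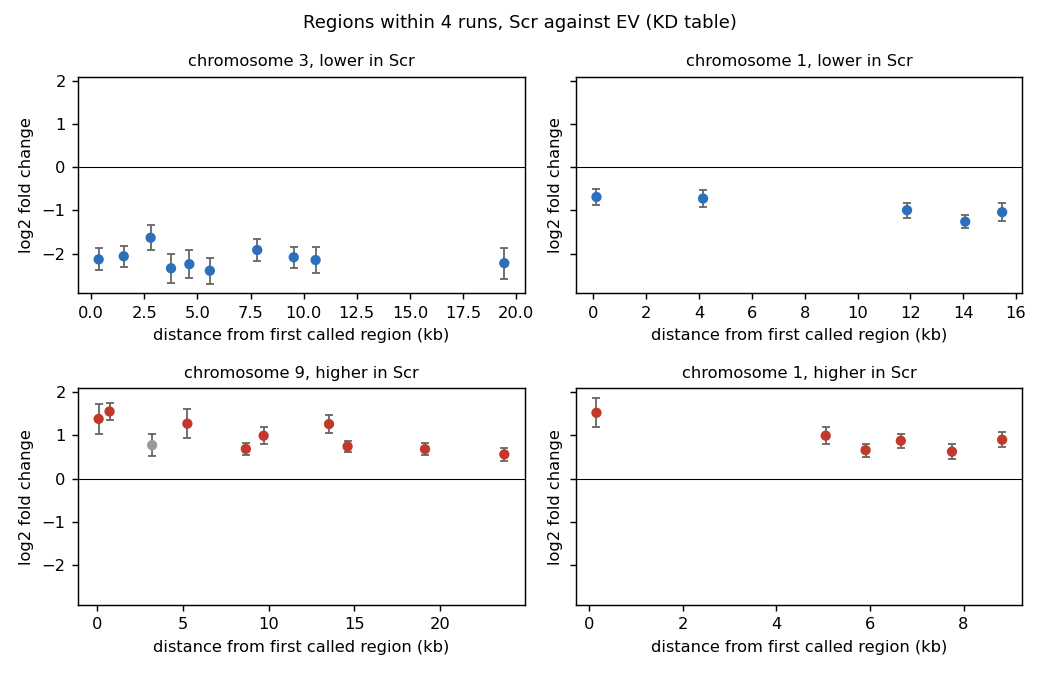
Log2 fold change of Scr against EV with its SE (y axis) for each tested region in 4 runs, by distance from the first called region in kb (x axis). Coloured points passed an FDR of 0.05 and the grey point did not. The chromosome 3 run stays between -2.40 and -1.63, and the chromosome 9 run ranges from 0.56 to 1.55.

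Direction went with the width and the level of a region. In the KD table, 5.34% of the regions of 500 bp or more were lower in Scr and 0.63% were higher, and among regions under 200 bp 1.24% were lower and 3.72% higher. The median log2 fold change fell from 0.13 for the narrowest to -0.15 for the widest class. Regions under 5 CPM had a median of 0.16 and those with 20 CPM or more a median of -0.10. Within each of 3 classes of level the widest regions of the KD table still had the lowest median, -0.11 under 5 CPM, -0.13 at 5 to 20 CPM and -0.17 above.

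The order by width did not hold in every class of the OE table. Its widest regions had the lowest median above 20 CPM (-0.22), but the highest under 5 CPM (0.50). The order by level was steeper there, from 0.26 under 5 CPM to -0.18 at 20 CPM or more. Depth differed between the groups in both tables, and its part in this order was not tested. With all libraries of the KD table thinned to the smallest total, 772 regions were higher and 847 lower.

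**Figure D4:**
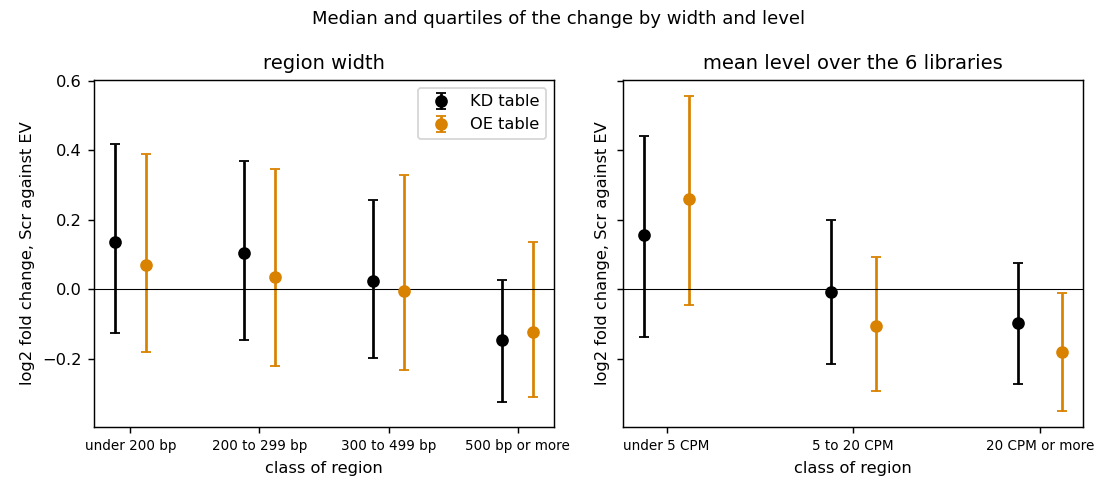
Median log2 fold change of Scr against EV with its quartiles (y axis) by class of region width and of mean level (x axis), in the KD table (black) and the OE table (orange). In the KD table the median falls from 0.13 to -0.15 with width and from 0.16 to -0.10 with level.

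The differences were spread over the genome. The median log2 fold change of the autosomes and the X lay between -0.02 and 0.07, and 3.33% to 5.39% of their regions were called. The 12 mitochondrial regions had a median of -0.33 with no call, and the 29 regions of the Y had a median of 0.37 with 3 calls. Of 449 windows of 5 Mb with at least 30 regions, 416 held a call. The densest was the window of chromosome 3 that holds the run from 9493023, where 12 of 59 regions were lower and 1 was higher. A median beyond 0.3 in size occurred in 2 windows, on chromosome 1 (0.51 over 32 regions) and chromosome 7 (0.43 over 32 regions).

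The same 6 libraries were tested over the 37671 regions of the OE table, which is a check of the region set and not of the cells. Of these, 2013 (5.34%) differed, 908 higher (2.41%) and 1105 lower (2.93%) in Scr. Without TMM the split was 1560 and 462. Leaving out EV replicate 1 or 2 or Scr replicate 1 or 3 brought the counts down to 71 to 93 higher and 103 to 286 lower regions, and they rose without EV replicate 3 (1468 and 1529) or Scr replicate 2 (2038 and 1990). The 20 largest regions held 26.7% to 34.5% of the counts of the 6 libraries in this table, compared with 6.64% to 8.14% in the KD table. Of 958 higher and 963 lower calls in the KD table, 681 and 367 overlapped a tested OE table region by at least 50% reciprocally. The other calls could not be checked there. Among the named falls they included chr6:49028773-49028937, chr6:49033116-49033642, chr5:88077596-88078036, chr10:18731412-18732812, chr1:192427928-192428532 and chr2:165958795-165959004. The named rise chr5:28276425-28276729 was another. All calls with a counterpart had the same sign there, beside 82.8% of all 22589 tested regions with one. Of these calls, 253 higher and 331 lower ones were also called in the OE table, with 0 called in the opposite direction. Both tables count the same libraries over overlapping positions, so a shared sign is no independent support.

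The overexpression and knockdown lines were then set against each other at the same regions, because EV is the named control of OE, and Scr that of KD4 and KD6. This contrast shares no library with Scr against EV, but its lines also differ in *Smarcd1*, so it is no repeat of the comparison. Construct, drug and sample order set OE apart from the knockdown lines. Construct and sample order also set EV apart from Scr, as does drug if each control was kept like its experiment. The parts of construct, drug and sample order in a shared sign cannot be told apart. Over all regions 462 of 44382 (1.04%) differed between the mean of KD4 and KD6 and OE, 278 higher (0.626%) and 184 lower (0.415%) in the knockdown lines. Of the 958 regions higher in Scr, 875 (91.3%) were also higher in the knockdown lines than in OE, beside 51.2% of all tested regions with that sign. Of the 963 lower ones 834 (86.6%) were also lower, beside 48.8%. The calls numbered 130 and 76 in the same direction and 0 in the opposite one. The median log2 difference was 0.39 for the higher and -0.21 for the lower regions. The medians of Scr against EV, 0.86 and -0.76, are not comparable with these in size, since the regions were selected on that contrast. The counts of this contrast depended on single libraries too, with 42 to 853 higher and 34 to 753 lower regions when 1 of the 9 was left out (the fewest without OE replicate 1 and the most without KD4 replicate 1), and KD6 alone against OE gave 72 and 43.

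Loci differed in this respect. At chr6:49024678-49025006 OE averaged 85.8 ± 23.6 CPM (SD, n = 3), near EV, and KD4 and KD6 averaged 7.17 ± 3.26 and 11.4 ± 2.88 CPM, near Scr (log2 difference of the knockdown lines from OE -3.24, FDR 7.82e-08). The same order of lines was found at chr8:85571037-85571352 (OE 174 ± 12.9, KD4 458 ± 21.3 and KD6 458 ± 73.8 CPM, log2 difference 1.39, FDR 5.23e-06) and at chr2:140797842-140797999 (OE 164 ± 22.9, KD4 473 ± 137 and KD6 454 ± 56.6 CPM, FDR 9.84e-05). In these regions OE lay near EV, and both knockdown lines lay near Scr.

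Other loci set Scr apart from all other lines. At chr10:18731412-18732812 OE averaged 167 ± 5.81, KD4 168 ± 9.63 and KD6 144 ± 24.8 CPM, compared with 62.9 ± 9.25 CPM in Scr and 193 ± 26.8 CPM in EV. The knockdown lines did not pass the test against OE there (log2 difference -0.10, SE 0.11, FDR 0.723). At chr2:80447598-80447879 the log2 difference was -0.07 (FDR 0.862), and in the run chr1:191339932-191355794 the median was 0.05, with 0 of 5 regions called. The run chr3:9493023-9512567 lay between, with a median log2 difference of -0.86 and 3 of 10 regions called.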

How the data were processed

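According to the methods, alignment of the ATAC-seq reads (mm39, Bowtie2) and peak calling (MACS) were done in Partek Flow. The processing notes of the submitters list STAR 2.7.8a. The merging of peaks and the assignment of reads are not described. The authors deposited expected counts for each region without normalization, of which 95.1% (KD table) and 95.0% (OE table) were whole numbers, and these were rounded. Another 15 columns of each table match no sample and were left out.

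EV and Scr were fitted alone with edgeR 4.0.16 in R 4.3.3 (quasi-likelihood test, TMM, filterByExpr, Benjamini-Hochberg FDR of 0.05). DESeq2 1.42.0 was an alternative. SE is the size of the log2 fold change divided by the square root of F. CPM were TMM-scaled over 15 libraries. Library measures were tested by exact two-sided permutation in scipy 1.17.1. Variance between replicates was at least 4.8 times that of sampling, and each library was treated as its own replicate. The labels describe the libraries of a control as passages of the same line. The p-values measure the spread between 3 such libraries. They cannot separate an effect of the construct from other differences between the lines.

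The named regions, for each direction, were the 10 of largest change and the 5 of smallest p among called regions with at least 5 CPM and groups that did not overlap. The named runs were the 6 with the most members, ties broken by level. Regions, runs and lists were chosen with earlier results of these data known. Gene totals, gene lists and marker lists needed an mm39 annotation and were not applied, and positions of other builds were not joined to the regions.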

Additional observations from a re-analysis of the deposited data

How the results depend on the processing

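Of the 21 named regions, 19 stayed called with the same sign in every alternative run for them, and the calls lost at the other 2 are given above. RLE scaling, no filter on low counts, leaving out mitochondrial and the 20 largest regions, thinned libraries (added after seeing the data) and DESeq2 kept the counts of Scr against EV within 1.5 times in both tables. Counts of lower regions moved further without TMM (436 in the KD table, 462 in the OE table). So did the count of higher regions in the OE table without TMM (1560). The lower regions of the OE table with at least 50 counts in 3 libraries also moved further (558, fewer regions tested). A fit of all 15 libraries moved the lower regions of the KD table (1494). The replicate number as a block moved both directions of the OE table (2124 higher and 2327 lower). Leaving out 1 library gave 106 to 1348 higher and 213 to 1504 lower regions in the KD table, and 71 to 2038 and 103 to 1990 in the OE table. For the knockdown lines against OE it gave 42 to 853 and 34 to 753. That contrast had 449 higher and 317 lower regions with DESeq2, 72 and 43 for KD6 alone, and 365 lower for KD4 alone. Runs with gaps of up to 50 kb numbered 36 higher and 51 lower. Scr minus EV in detected regions of the KD table was 456 at 10 counts after thinning, 54.7 at 5, 1442 at 20 and -376.7 with no thinning, and 852, 231, 2078 and 379.7 in the OE table, where the thinned values of the groups did not overlap (exact permutation test, p = 0.1, the smallest possible). The causes of these shifts were not tested.

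Replicate numbers were not taken to pair libraries in the main fits. Deviations of same-numbered libraries in the KD table correlated by 0.01, 0.03 and 0.18, and those of differently numbered ones by -0.18 to 0.13. So few values cannot decide whether replicate numbers pair libraries. With the replicate number as a block, there were 1041 higher and 1085 lower regions in the KD table. The OE table had 2124 higher and 2327 lower ones, compared with 908 and 1105 without the block. Both tables count the same libraries, so any pairing would be common to them. The correlations were not computed in the OE table, and whether replicate numbers pair libraries was not settled. No gene totals were run, since no mm39 annotation was used.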
